A study of Mus musculus with 16 samples.

Results

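The Myc and Max network is a family of basic helix-loop-helix leucine zipper transcription factors, and 10 of its genes were followed here: Myc, Mycn, Mycl, Max, Mxd1, Mxi1, Mxd3, Mxd4, Mnt and Mlx. They were chosen by name from the 53801 genes of the count table, since Trrap, the gene deleted in these mice, encodes a cofactor of Myc. All 10 were found under 1 Ensembl identifier each, and all 10 passed the filter on low counts, which left 19438 genes in the table of all libraries.

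Myc proteins bind DNA as dimers with Max at the E-box and activate genes of growth, metabolism and the cell cycle, in part by recruiting Trrap and the histone acetyltransferases it scaffolds. The Mxd proteins, Mxi1 and Mnt compete for Max and bring the Sin3 corepressor and histone deacetylases to the same motif. Mlx is a relative of Max that pairs with the glucose-responsive factors Mlxip and Mlxipl and with some of the repressors. In the developing forebrain Mycn is known for keeping neural progenitors dividing, and Mycl is the Myc gene that stays on in many neurons.

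The 16 RNA-seq libraries were made from cortices and striata of mice of a mixed C57BL6/J-129sv background, 10 days old. The libraries labelled Trrap-FBΔ came from mice with the genotype Trrap Fl/Fl; Camk2-Cre tg, in which both Trrap alleles are floxed. The control mice had the genotype Trrap Fl/+; Camk2-Cre tg, so they also carried Cre and 1 floxed allele. Each of the 4 groups held 4 libraries. Mice 57, 59, 60 and 61 gave both Trrap-FBΔ tissues (3 females and 1 male), mice 55, 58, 63 and 64 the control cortices (2 females and 2 males), and mice 58, 63, 64 and 65 the control striata (1 female and 3 males). The methods name the driver as Tg(Camk2a-cre/ERT2)2Gsc and describe a deletion in forebrain glutamatergic neurons. Glia, vessels, progenitors and interneurons are not named there as targets but are part of the dissected tissue. Which cells lost Trrap was not measured here. In such bulk samples fewer cells of a type and less RNA per cell cannot be told apart.

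The depth was 28743866 to 48761429 counted reads per cortex and 31735896 to 47612379 per striatum. Trrap itself was measured at 136 to 173 CPM (read counts scaled to a common library size with TMM factors) in the control cortices and at 121 to 146 CPM in the cortices labelled Trrap-FBΔ, with overlapping groups (log2 fold change -0.18, standard error 0.075, edgeR adjusted p = 0.083). In the striatum the 2 groups also overlapped (log2 fold change -0.04, standard error 0.048, edgeR adjusted p = 0.52). Counts over the whole gene do not resolve the deleted exons and come from all cells, so Trrap was no check of the labels. Without the control cortex of mouse 63 the cortical difference was -0.23, with an edgeR adjusted p of 0.034, and it was also called without the filter (0.046) and in a fit of all 16 libraries (0.047).

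The tissue labels were checked against marker genes. Slc17a7, the vesicular glutamate transporter of cortical neurons, was measured at 890 to 1220 CPM in the cortices. It gave 227 to 395 CPM in the control striata and 136 to 231 CPM in the Trrap-FBΔ striata (log2 fold change -0.88, edgeR adjusted p = 0.011). Whether unequal cortical tissue in the striatal libraries bears on the members was not tested. The summed level of 12 markers of striatal projection neurons overlapped between the tissues, since it ranged from 538 to 1190 CPM in the cortices and from 377 to 1660 CPM in the striata. The control striata of mice 58 and 64 stood at the ends of that range, with 7.84 and 59.9 CPM of the dopamine receptor gene Drd1. Among the cortices, the controls of mice 58 and 63 were highest, at 1090 and 1190 CPM. The counts of members given below were therefore also made without these pairs of libraries, a choice made after seeing the data.

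The promoters of members that were lower in both tissues are shown first, since the network acts through the E-box. RefSeq entries on GRCm38.p6 were found for Mycn, Mxd4, Mnt and Mlx but not for Myc, which was also lower in both. The 250 bases before the annotated start are printed 5′ to 3′ on the strand of the gene. Capitals mark the E-box CACGTG and the GC box GGGCGG, or CCGCCC on the other strand.
Mycn promoter, chr12:12941837-12942086, minus strand: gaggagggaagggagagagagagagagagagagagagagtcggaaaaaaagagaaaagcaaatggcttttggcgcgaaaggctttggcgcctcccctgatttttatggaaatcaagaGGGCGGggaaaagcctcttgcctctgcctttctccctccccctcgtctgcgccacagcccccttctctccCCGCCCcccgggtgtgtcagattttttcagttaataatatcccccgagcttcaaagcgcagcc
Mxd4 promoter, chr5:34187711-34187960, minus strand: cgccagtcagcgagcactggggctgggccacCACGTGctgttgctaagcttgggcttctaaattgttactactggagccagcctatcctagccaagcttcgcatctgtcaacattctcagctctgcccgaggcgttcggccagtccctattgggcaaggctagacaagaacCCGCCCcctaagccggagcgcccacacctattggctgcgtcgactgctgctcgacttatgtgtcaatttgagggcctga
Mnt promoter, chr11:74830674-74830923, plus strand: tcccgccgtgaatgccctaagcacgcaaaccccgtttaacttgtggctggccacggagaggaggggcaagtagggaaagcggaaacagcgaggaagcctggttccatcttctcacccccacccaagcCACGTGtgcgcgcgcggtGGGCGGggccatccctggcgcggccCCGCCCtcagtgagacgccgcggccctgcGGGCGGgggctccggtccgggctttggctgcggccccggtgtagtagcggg
Mlx promoter, chr11:101087040-101087289, plus strand: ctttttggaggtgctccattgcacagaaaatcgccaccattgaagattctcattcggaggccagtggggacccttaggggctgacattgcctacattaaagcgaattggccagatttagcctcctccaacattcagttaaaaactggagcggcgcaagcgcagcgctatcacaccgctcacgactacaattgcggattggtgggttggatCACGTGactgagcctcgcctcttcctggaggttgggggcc
Mxd4, Mnt and Mlx each held 1 E-box, which began 219, 123 and 40 bases before the start. No E-box was found in the window of Mycn, which held 2 GC boxes. Mxd4 held 1 GC box, Mnt held 3 and Mlx none. The windows of Mycl, Max, Mxd1, Mxd3 and Mxi1, which were not lower in both tissues, held no E-box, and of these only Max held no GC box. The striatal calls of Mxd4 and Mnt were not firm, as given below, so this grouping of the members is not firm either. Of all 32851 promoter windows of this length, 6.02% held the E-box and 32.7% the GC box on either strand, which do not overlap each other in sequence. These matches describe letters only, and binding was not measured.

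Trrap-FBΔ was compared with control within each tissue to ask whether loss of the cofactor went with altered levels of the factors it serves. In the cortex, 5 of the 10 members fell and 0 rose (edgeR quasi-likelihood test, adjusted p under 0.05). These were Myc, Mycn, Mxd4, Mnt and Mlx. Of all 18268 genes tested there, 33.3% were called, 17.6% lower and 15.7% higher. In the striatum, 6 of the 10 members fell and 0 rose, namely the same 5 and Mxi1, while 30.2% of 18872 genes were called, 15.8% lower and 14.4% higher. Being lower in both tissues held for 5 of 10 members and for 10.5% of the genes tested in both. The median log2 fold change of the members was -0.11 for cortex and -0.24 for striatum, beside 0.00 and -0.01 for all genes.

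The calls differed in how firmly they held. Without the control striata of mice 58 and 64, 4 members remained called in the striatum, and Mxd4 and Mnt were lost. Without the control cortices of mice 58 and 63, 4 remained in the cortex, and Mxd4 was lost. Upper-quartile scaling left 4 in the striatum, without Mxd4 and Mxi1. With sex as a covariate, the striatal count fell to 3 (Myc, Mycn and Mlx), and the cortical count stayed at 5. Against a fold change of 1.2 as the null, Myc alone was called in the cortex, and Myc and Mycn in the striatum. The groups did not overlap, with Trrap-FBΔ lower, in 5 members per tissue (Myc, Mycn, Mxd4 and Mlx in both, with Mnt in the cortex and Mxi1 in the striatum), beside 16.7% (cortex) and 16% (striatum) of all genes.

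**Figure D1:**
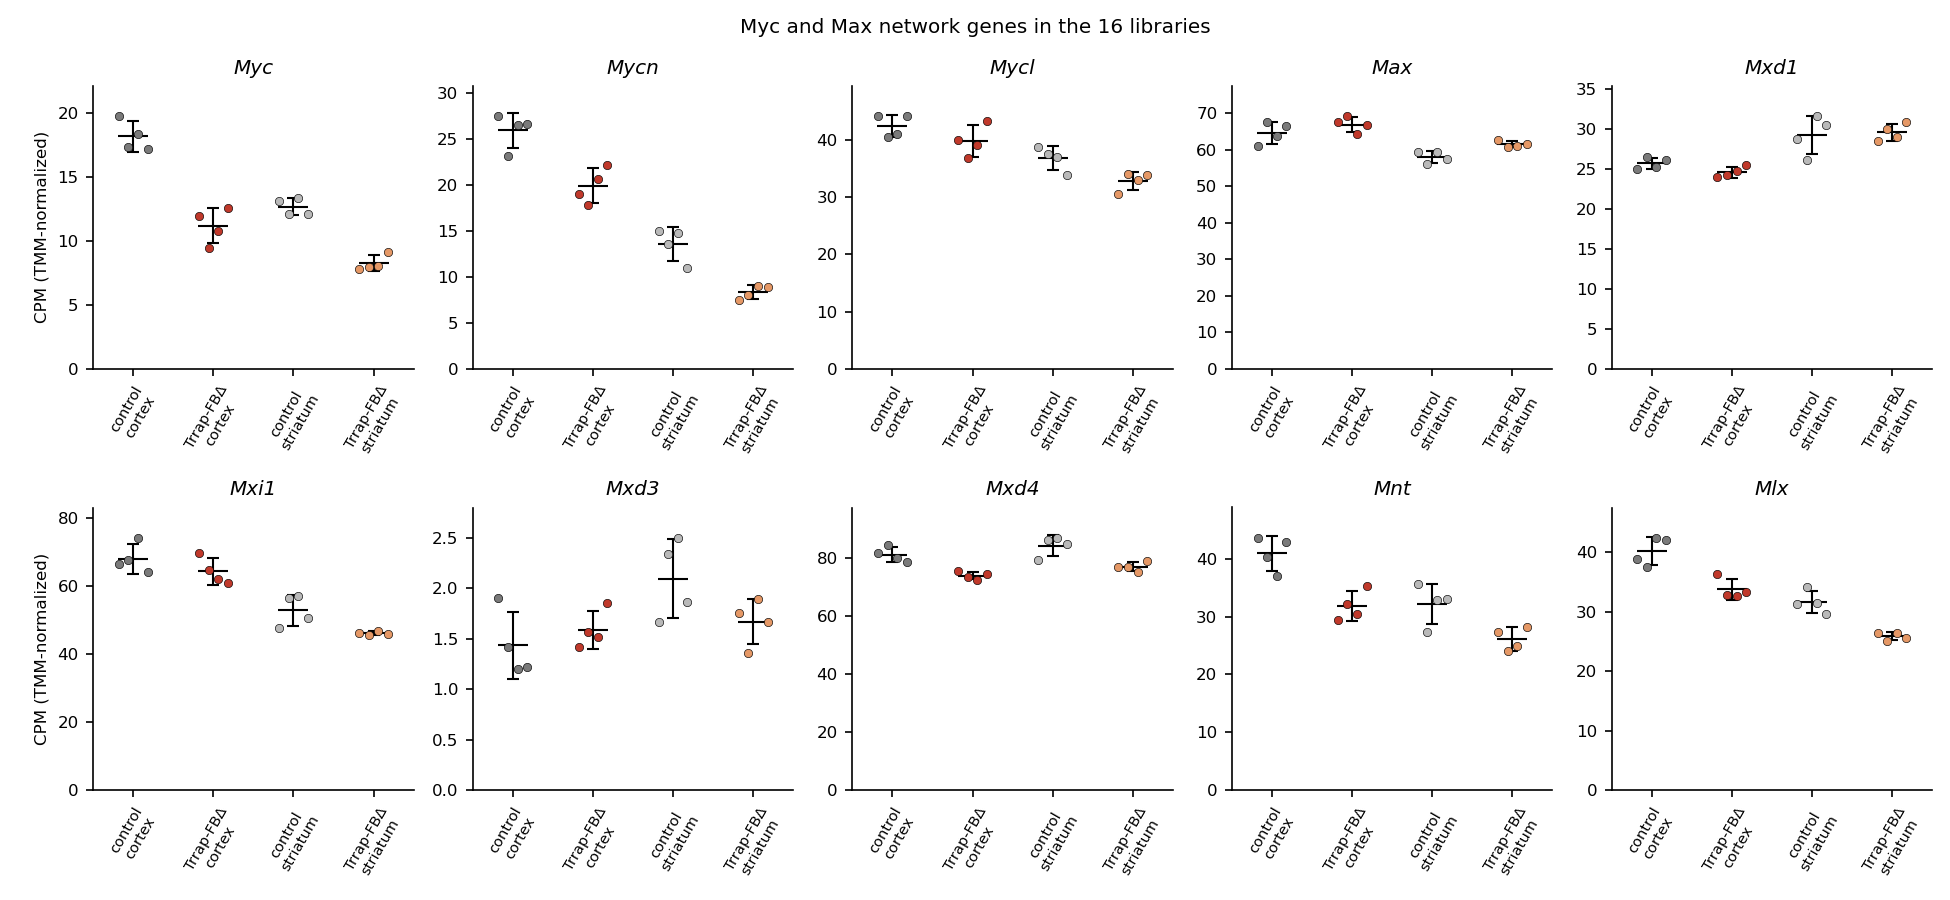
TMM-normalized CPM (y axis, from 0) of each network gene in the 4 groups (x axis). Each point is 1 library and the bars are the mean and SD of 4 libraries. Myc and Mycn are separated between genotypes in both tissues, with Myc at 17.2 to 19.8 CPM in control cortices and at 9.46 to 12.6 CPM in Trrap-FBΔ cortices.

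Myc (ENSMUSG00000022346, chromosome 15, 61985391 to 61990374, plus strand of GRCm38), the founding activator of the family, was measured at 19.8, 17.4, 18.4 and 17.2 CPM in the control cortices of mice 55, 58, 63 and 64. The Trrap-FBΔ cortices of mice 57, 59, 60 and 61 gave 11.9, 9.46, 10.8 and 12.6 CPM. All 4 Trrap-FBΔ cortices were thus below the lowest control. The means were 18.2 ± 1.18 and 11.2 ± 1.37 CPM (SD, n = 4 each), a log2 fold change of -0.70 (standard error 0.090, edgeR adjusted p = 0.000232). In the striatum the controls of mice 58, 63, 64 and 65 gave 13.1, 12.1, 13.4 and 12.1 CPM, and the Trrap-FBΔ libraries 7.84, 8.00, 8.04 and 9.17 CPM. Again the groups did not overlap, and Trrap-FBΔ reached 65.1% of the control mean (log2 fold change -0.62, standard error 0.075, edgeR adjusted p = 0.000427). Myc was called under all 17 alternatives in each tissue. For a single gene the exact permutation test, 2-sided, cannot go below p = 0.0286 with 4 libraries against 4, and it gave that value for Myc in both tissues.

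Mycn (ENSMUSG00000037169, chromosome 12, 12936093 to 12941914, minus strand), the paralogue of neural progenitors, gave 27.5, 23.2, 26.5 and 26.6 CPM in the control cortices and 19.1, 17.8, 20.7 and 22.2 CPM in the Trrap-FBΔ cortices. The highest Trrap-FBΔ library lay just under the lowest control. Its log2 fold change was -0.38 (standard error 0.081, edgeR adjusted p = 0.00442). In the striatum, where Mycn was lower to begin with, the controls gave 15.03, 13.6, 14.8 and 10.96 CPM and the Trrap-FBΔ libraries 7.47, 8.03, 9.02 and 8.84 CPM. The control of mouse 65 was closest to the Trrap-FBΔ group, which it did not reach. Here Mycn fell to 61.4% of the control mean (log2 fold change -0.70, standard error 0.108, edgeR adjusted p = 0.00131).

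Mycl (ENSMUSG00000028654, chromosome 4, 122995652 to 123002485, plus strand), the most abundant of the 3 Myc genes per length, was not called in either tissue. It gave 40.6 to 44.2 CPM in control and 36.9 to 43.5 CPM in Trrap-FBΔ cortices (log2 fold change -0.09, 95% interval -0.22 to 0.04, edgeR adjusted p = 0.273). The striatal values were 38.8, 37.5, 37.1 and 34.0 CPM in controls and 30.5, 34.1, 33.0 and 33.9 CPM in Trrap-FBΔ libraries. These groups overlapped in 1 library only, the control of mouse 65 at 34.0 CPM against 34.1 CPM in Trrap-FBΔ mouse 59. The log2 fold change was -0.16 (standard error 0.059, edgeR adjusted p = 0.059), and without that control it was -0.20 with an edgeR adjusted p of 0.029. It was also called when all 16 libraries were fitted together (-0.16, edgeR adjusted p = 0.043), which made 7 members called in the striatum. Over 17 alternatives the adjusted p ranged from 0.029 to 1.

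Max (ENSMUSG00000059436, chromosome 12, 76937269 to 76962201, minus strand), the partner that Myc and its antagonists share, was not lower in either tissue. It gave 60.9, 67.5, 63.7 and 66.4 CPM in control cortices and 67.5, 69.2, 64.2 and 66.7 CPM in Trrap-FBΔ cortices, which overlap (log2 fold change 0.05, 95% interval -0.05 to 0.15, edgeR adjusted p = 0.445). In the striatum all 4 Trrap-FBΔ libraries (60.8 to 62.5 CPM) lay above the 4 controls (56.1 to 59.5 CPM). The exact permutation test, 2-sided, gave p = 0.0286, the smallest that it can give. The model across all genes did not call this difference of 0.08 on the log2 scale (95% interval -0.01 to 0.17, edgeR adjusted p = 0.155).

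The antagonists differed among themselves. Mnt (ENSMUSG00000000282, chromosome 11, 74830920 to 74845725, plus strand), a repressor expressed in most cells, gave 43.6, 40.3, 37.0 and 42.9 CPM in control and 29.4, 32.2, 30.4 and 35.3 CPM in Trrap-FBΔ cortices. All Trrap-FBΔ cortices were below all controls (log2 fold change -0.36, standard error 0.072, edgeR adjusted p = 0.0028). In the striatum the controls gave 35.6, 27.4, 32.8 and 33.0 CPM and the Trrap-FBΔ libraries 27.4, 24.03, 24.8 and 28.2 CPM. Here the control of mouse 63 fell among the Trrap-FBΔ libraries. The striatal difference of -0.30 (standard error 0.085) had an edgeR adjusted p of 0.0232. It was not called without any 1 of the controls 58, 64 and 65 or the Trrap-FBΔ libraries 59 and 60, at -0.29 to -0.25 and edgeR adjusted p of 0.050 to 0.067, nor with sex as a covariate (0.11). Over 17 alternatives the range was 0.0038 to 0.56.

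Mxd4 (ENSMUSG00000037235, chromosome 5, 34173883 to 34187720, minus strand), a Mxd gene associated with cells leaving the cycle, had the highest CPM of the members and a small difference. The control cortices gave 82.0, 84.5, 80.1 and 78.8 CPM and the Trrap-FBΔ cortices 75.6, 73.7, 72.5 and 74.5 CPM. In the striatum the controls gave 79.3, 86.5, 87.1 and 84.8 CPM and the Trrap-FBΔ libraries 77.0, 76.9, 75.3 and 79.1 CPM. Neither pair of groups overlapped, although the control striatum of mouse 58 and the Trrap-FBΔ striatum of mouse 61 almost met. The TMM factors, which divide the counts, were themselves separated by genotype. They were 0.928 to 0.952 in control and 0.976 to 0.988 in Trrap-FBΔ cortices, and 1.001 to 1.025 and 1.066 to 1.078 in the striata. Whether the Mxd4 groups stay apart without these factors was not tested. The log2 fold changes were -0.14 (standard error 0.040, edgeR adjusted p = 0.0226) and -0.13 (standard error 0.044, edgeR adjusted p = 0.0442). The cortical call was lost without the control of mouse 58 or the Trrap-FBΔ library of mouse 59, 60 or 61, at edgeR adjusted p of 0.052 to 0.099. The striatal call was lost on leaving out any 1 of the 8 libraries except the control of mouse 58, at edgeR adjusted p of 0.067 to 0.12. Over 17 alternatives the adjusted p ranged from 0.012 to 1 (cortex) and from 0.014 to 1 (striatum).

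Mxi1 (ENSMUSG00000025025, chromosome 19, 53310518 to 53375810, plus strand), also known as Mad2, was called in the striatum and not in the cortex. The control cortices gave 64.04 to 74.2 CPM and the Trrap-FBΔ cortices 60.9 to 69.8 CPM (log2 fold change -0.08, 95% interval -0.21 to 0.05, edgeR adjusted p = 0.316). In the striatum the controls gave 47.5, 56.4, 56.99 and 50.6 CPM and the Trrap-FBΔ libraries 46.2, 45.5, 46.8 and 45.9 CPM. The Trrap-FBΔ libraries were close together and below all controls, of which mouse 58 was nearest. The log2 fold change was -0.20 (standard error 0.062, edgeR adjusted p = 0.0349), and its call was lost without the control of mouse 63 or 64 or any 1 Trrap-FBΔ library, at edgeR adjusted p of 0.063 to 0.094 within a range of 0.012 to 1 over 17 alternatives. The genotype difference in the striatum was not called unequal to that in the cortex (edgeR interaction, adjusted p = 0.643).

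The other antagonists, Mxd1 and Mxd3, were not called. Mxd1 (ENSMUSG00000001156, chromosome 6, 86647042 to 86669161, minus strand), known for its rise as cells differentiate, gave 25.0 to 26.5 CPM in control and 24 to 25.5 CPM in Trrap-FBΔ cortices, and 26.2 to 31.6 and 28.6 to 31.0 CPM in the striata. Its log2 fold changes were -0.06 (95% interval -0.18 to 0.05, edgeR adjusted p = 0.368) and 0.02 (95% interval -0.13 to 0.16, edgeR adjusted p = 0.866). Mxd3 (ENSMUSG00000021485, chromosome 13, 55325168 to 55329823, minus strand), a Mxd gene of cycling cells, was counted only 46 to 98 times per library. It gave 1.195 to 1.90 CPM in control and 1.42 to 1.86 CPM in Trrap-FBΔ cortices, and 1.67 to 2.499 and 1.36 to 1.89 CPM in the striata. At this depth the intervals of its log2 fold change were wide, from -0.22 to 0.55 for cortex and from -0.68 to 0.03 for striatum. Both included 0, and a difference within them could have been missed.

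Mlx (ENSMUSG00000017801, chromosome 11, 101087277 to 101092207, plus strand), the Max-like partner of the glucose sensors, gave 38.8, 37.5, 42.4 and 42.0 CPM in control and 36.3, 32.7, 32.7 and 33.3 CPM in Trrap-FBΔ cortices. The Trrap-FBΔ cortex of mouse 57 came nearest to the controls. Striatal values were 31.2, 34.1, 31.4 and 29.7 CPM in controls and 26.4, 25.1, 26.5 and 25.5 CPM in Trrap-FBΔ libraries. In both tissues all Trrap-FBΔ libraries were below all controls. The log2 fold changes were -0.25 (standard error 0.060, edgeR adjusted p = 0.00797) and -0.29 (standard error 0.056, edgeR adjusted p = 0.00392). Each passed the threshold in 16 of 17 alternatives, the exception being the test against a fold change of 1.2. The exons of Mlx overlap those of Psmc3ip on the other strand by 385 bases, and the reads were counted by strand.

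**Figure D2:**
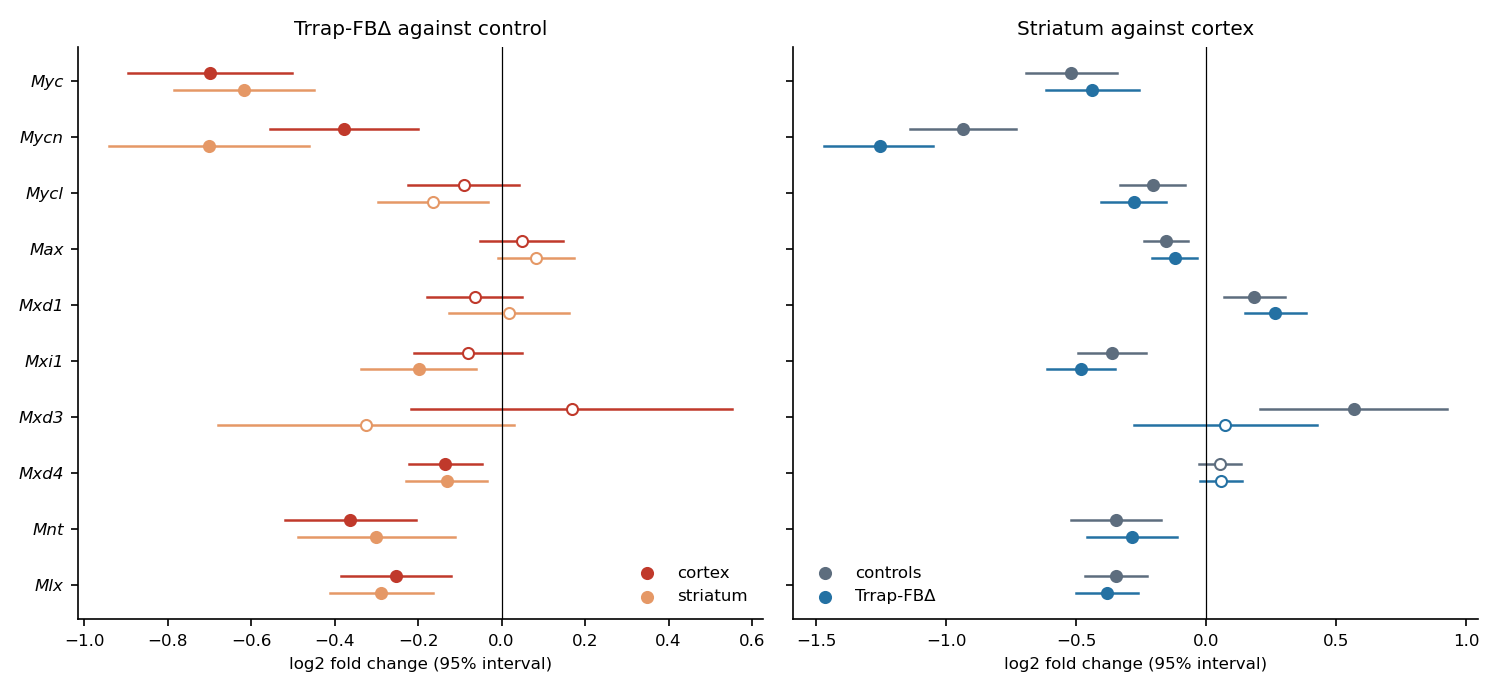
Log2 fold change (x axis) with its 95% interval for each network gene, between genotypes in each tissue on the left and between tissues in each genotype on the right. Filled points passed the edgeR threshold and open points did not. Myc lies at -0.70 in the cortex and -0.62 in the striatum, whereas both intervals of Max and Mxd1 between genotypes include 0.

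An interaction term in a fit of the 16 libraries together asked if the genotype difference was unequal in cortex and striatum. It was called for 0 of 10 members and for 0.437% of 19438 genes. At an unadjusted p under 0.05 stood 1 member and 2347 of all genes, and DESeq2 and limma-voom also called 0 members. That member was Mycn, with a striatal fall greater than the cortical one by 0.32 on the log2 scale (interaction -0.32, 95% interval -0.61 to -0.03, edgeR adjusted p = 0.348). Slc17a7 was also lower in the Trrap-FBΔ striata (-0.88, edgeR adjusted p = 0.011) and was not called in the cortex (0.11, edgeR adjusted p = 0.37). The part of cortical tissue in the Mycn values was not tested. Mxd3 moved in opposite directions, at 0.17 (cortex) and -0.33 (striatum), with neither tissue called and an interaction of -0.49 (95% interval -0.998 to 0.01, edgeR adjusted p = 0.422). For Myc the interaction was 0.08 (95% interval -0.17 to 0.33).

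Most members also differed by tissue. In controls 9 of 10 were called between striatum and cortex, 7 lower and 2 higher in the striatum, beside 44.5% of all genes, 22% lower and 22.5% higher. Among the members that were lower in the striatum, Mycn differed most, with a control mean of 25.9 ± 1.89 CPM in the cortex and 13.6 ± 1.86 CPM in the striatum (SD, n = 4 each; log2 fold change -0.93, standard error 0.097, edgeR adjusted p = 7.19e-07). Myc was at -0.52 (standard error 0.083, edgeR adjusted p = 6.95e-05). Mxi1, Mnt and Mlx were lower in the striatum, with log2 fold changes of -0.36, -0.35 and -0.35, as were Mycl at -0.21 and Max at -0.15. Mxd1 and Mxd3 were higher there, by 0.19 and 0.57. Mxd4 was not called (0.05, 95% interval -0.03 to 0.14, edgeR adjusted p = 0.273).

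In the Trrap-FBΔ mice 8 of 10 members were called between the tissues, 7 lower and 1 higher in the striatum, beside 52.3% of all genes, 25.9% lower and 26.5% higher. Mycn was measured at 19.9 ± 1.92 CPM in the cortex and at 8.34 ± 0.723 CPM in the striatum (SD, n = 4 each; log2 fold change -1.26, standard error 0.099, edgeR adjusted p = 1.71e-08). Mxd1 was again higher in the striatum, by 0.27 (edgeR adjusted p = 0.000656). Mxd3, at 0.07 with a 95% interval of -0.28 to 0.42, was not called. The call of Max (-0.12, edgeR adjusted p = 0.018) was lost without the Trrap-FBΔ cortex of mouse 59, at an edgeR adjusted p of 0.069 in a range of 0.0072 to 1.

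Some of these tissue differences rested on few libraries. In controls, the call of Mxd1 was lost without the striatum of mouse 64 or 65 (edgeR adjusted p of 0.066 to 0.075), and its adjusted p ranged from 0.0012 to 1 over 28 alternatives. Without the control cortices of mice 58 and 63, Max, Mxd1 and Mxd3 were not called and 6 members remained. Cortices and striata of 1 animal were paired for 7 mice, and with the mouse as a replicate block in edgeR the calls of Mycl (-0.15, edgeR adjusted p = 0.082) and Mxd1 (0.15, edgeR adjusted p = 0.053) were lost in controls. Markers of mature oligodendrocytes were called higher in the control striata in 10 of 10 genes and those of cortical excitatory neurons lower in 10 of 12. The part of cell composition in these differences was not tested.

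Levels were compared between genes only per length, as RPKM on the same scale, using the union of annotated exons. In the control cortex the order was Mlx (20.1 ± 1.203 RPKM), Max (18.0 ± 0.819), Mycl (10.5 ± 0.491), Mxi1 (9.97 ± 0.638), Mxd4 (9.59 ± 0.292), Mnt (8.84 ± 0.650), Mycn (7.88 ± 0.575), Myc (6.70 ± 0.434), Mxd1 (3.64 ± 0.0997) and Mxd3 (0.605 ± 0.139), each a mean with SD of 4 libraries. Mlx and Max were not separated, and neighbours from Mycl down to Myc overlapped in their ranges, whereas Mxd1 and Mxd3 each stood apart. In the Trrap-FBΔ cortex Max (18.6 RPKM) came before Mlx (16.9 RPKM), with overlapping ranges, and Myc (4.12 RPKM) overlapped with Mxd1 (3.48 RPKM). The control striatum had Max (16.1 RPKM) and Mlx (15.8 RPKM) together at the top, and Myc, Mxd1 and Mycn between 4.12 and 4.67 RPKM with overlapping ranges of neighbours. In the Trrap-FBΔ striatum no neighbours overlapped, and Mxd1 (4.19 RPKM) stood above Myc (3.04 RPKM) and Mycn (2.53 RPKM). The order depended on the length used. With the longest transcript as the length the levels of 32 of 40 gene and group pairs moved by more than 1 SD, and Max stood alone at the top of every group, at 33.3 RPKM in the control cortex against 20.4 RPKM for Mlx. Mxd4, at 17.6 RPKM there, then passed Mxi1 (13.5 RPKM) and Mycl (12.1 RPKM), and in the striata it came before Mlx, at 18.3 against 16.1 RPKM in controls, with overlapping ranges, and at 16.7 against 13.2 RPKM in Trrap-FBΔ. Mxd1 came before Myc in the Trrap-FBΔ cortex and in both striatal groups. Their ranges overlapped in the Trrap-FBΔ cortex and the control striatum and were separated in the Trrap-FBΔ striatum. Mxd3 was lowest in every group with either length.

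**Figure D3:**
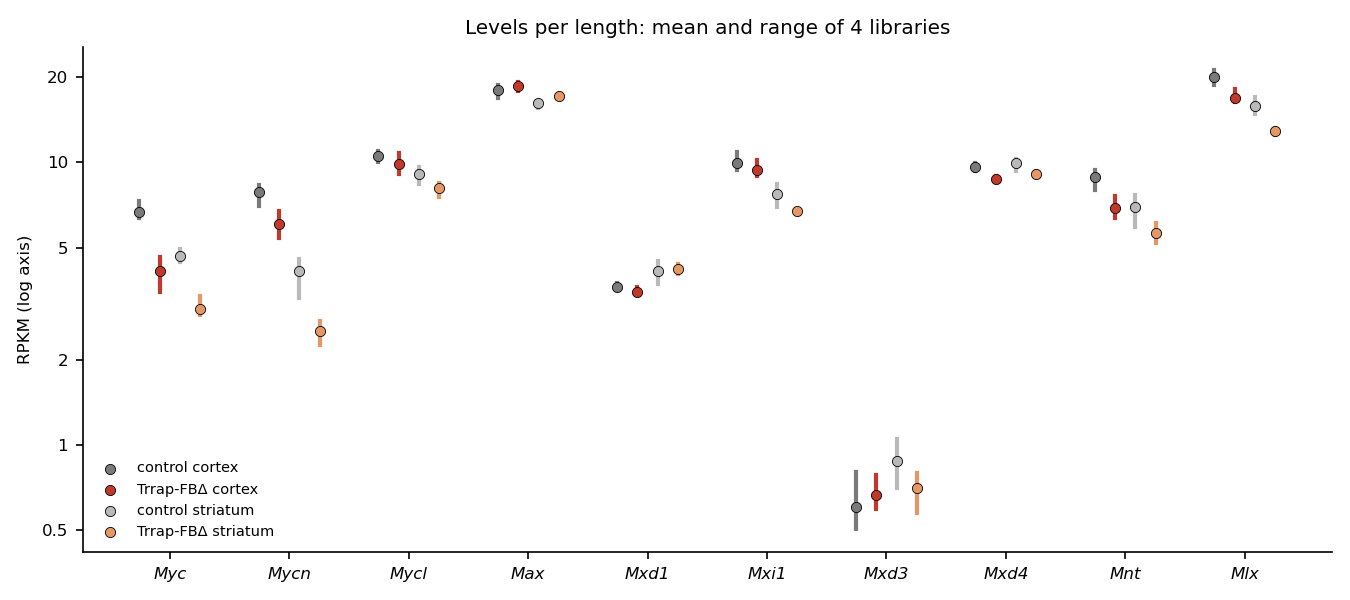
Level per length in RPKM (y axis, log scale) of each network gene (x axis). Points are means and lines the range of the 4 libraries of a group. With this exon-union length Max and Mlx are highest in every group, at 12.9 to 20.1 RPKM on average, and Mxd3 is lowest, at 0.605 to 0.884 RPKM. With the longest transcript as length, Mxd4 is above Mlx in both striatal groups.

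The summed level of the 3 Myc genes was 26.6, 23.5, 25.0 and 25.4 RPKM in the control cortices and 20.1, 18.0, 19.9 and 22.1 RPKM in the Trrap-FBΔ cortices. The striatal sums were 19.01, 17.9, 18.6 and 16.2 RPKM in controls and 12.7, 13.8, 13.9 and 14.5 RPKM in Trrap-FBΔ libraries. Neither pair of groups overlapped. Within the sum, Mycl took 42.0% ± 1.204 in control and 49.3% ± 0.945 in Trrap-FBΔ cortices, and 51.0% ± 1.25 and 59.4% ± 1.25 in the striata (SD, n = 4 each). Myc itself took 26.7% ± 1.15 and 20.5% ± 1.13 of the cortical sums and 26.1% ± 1.15 and 22.2% ± 1.02 of the striatal sums. Mycn held 31.4% ± 0.980 and 30.2% ± 1.09 of the cortical sums, where the groups overlapped, and 22.9% ± 1.65 and 18.4% ± 0.957 of the striatal sums.

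The summed level of the 5 antagonists was lower as well, by a smaller proportion. It was 32.7 ± 0.465 RPKM in control and 29.2 ± 0.601 RPKM in Trrap-FBΔ cortices, and 29.7 ± 1.09 and 26.4 ± 0.653 RPKM in the striata (SD, n = 4 each), again with no overlap. The ratio of the Myc sum to the antagonist sum was 0.769 ± 0.0388 and 0.686 ± 0.0534 for the cortices and 0.604 ± 0.0475 and 0.520 ± 0.0274 for the striata, control before Trrap-FBΔ. These ratios overlapped in the cortex, where Trrap-FBΔ mouse 61 (0.745) was above the control of mouse 58 (0.714), and were separated in the striatum, where the lowest control was 0.546 and the highest Trrap-FBΔ library 0.537. With the longest transcript as length these ratios were 0.639 and 0.564 (cortices) and 0.487 and 0.414 (striata), and the groups overlapped or were separated as before. The sums and shares are descriptions of RNA, without a test.

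**Figure D4:**
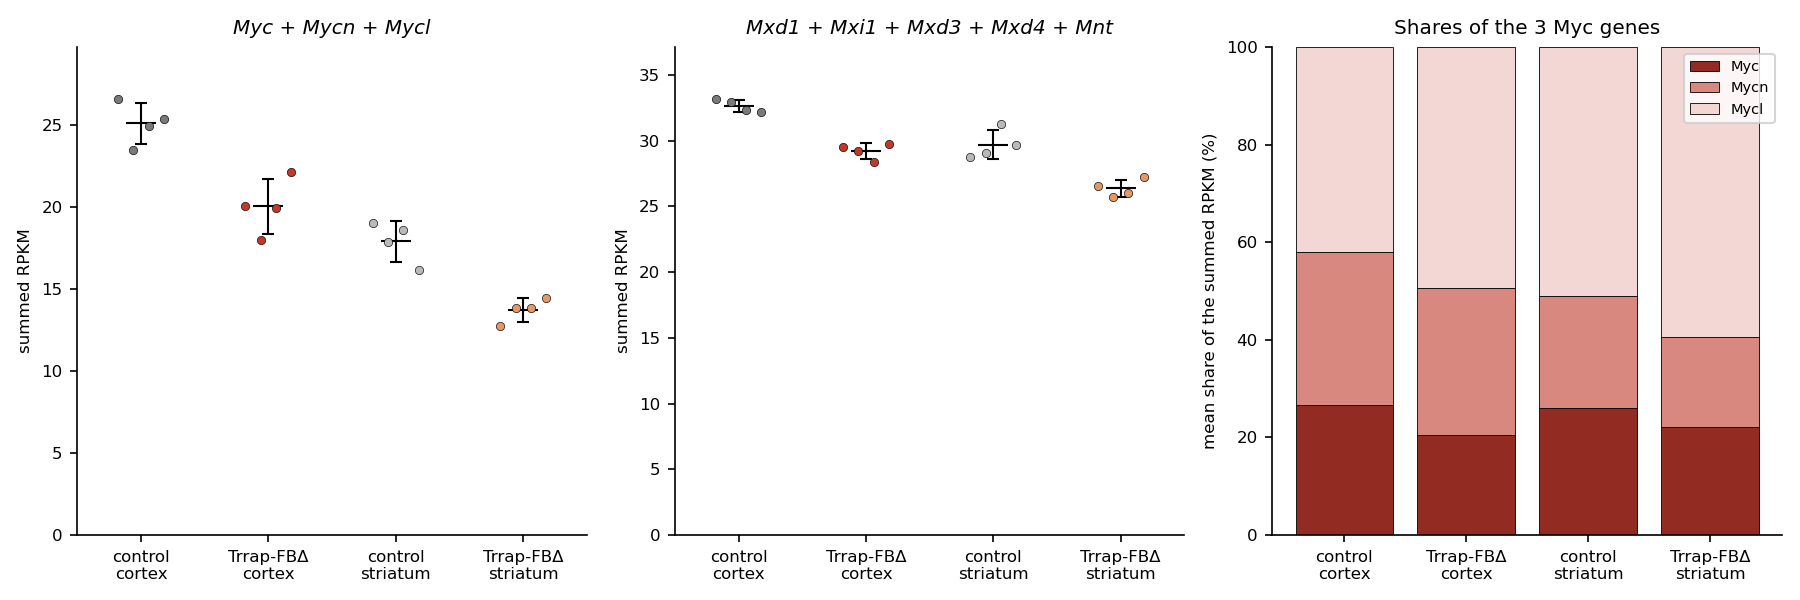
Summed RPKM (y axis, from 0) of the 3 Myc genes on the left and of the 5 antagonists in the middle, by group. Points are libraries, and bars are the mean and SD of 4 libraries. On the right, the mean share of each Myc gene in the sum. The share of Mycl is 42.0% in control and 49.3% in Trrap-FBΔ cortices, and 51.0% and 59.4% in the striata.

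The counts of called genes in the lists that follow stand beside the 33.3% (cortex) and 30.2% (striatum) of all genes that were called. Of 10 other listed factors, 9 were tested, with 1 lower and 2 higher among cortices, and 1 lower and 1 higher among striata (median log2 fold change 0.06 and 0.03). This list also holds Srebf1, Srebf2, Usf1, Usf2 and Zbtb17, which are not members of the Myc and Max network. Srebf1, a sterol and lipid regulator that binds related motifs, rose in both (0.27 and 0.54, edgeR adjusted p of 0.012 and 0.00065). Mlxipl, the glucose-responsive partner of Mlx, fell in the cortex (-0.45, edgeR adjusted p = 0.0086) and was at -0.21 in the striatum (edgeR adjusted p = 0.33). Bmyc, a short relative of Myc, rose in the cortex (0.18, edgeR adjusted p = 0.036), and Srebf2, the regulator of cholesterol synthesis, fell in the striatum (-0.22, edgeR adjusted p = 0.045). Mycs was too low to be tested. Among 10 Sin3 and deacetylase corepressor genes, 1 rose in the cortex, and 1 rose and 1 fell in the striatum.

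The 16 listed cofactors of Myc, Trrap included, gave 1 lower and 3 higher genes in each tissue (median 0.05 and 0.11), a smaller share than that of all genes. Cdk9 and Ccnt1, which form the elongation kinase P-TEFb, rose in both tissues, Cdk9 by 0.45 in each (edgeR adjusted p of 0.00061 and 0.00068) and Ccnt1 by 0.15 and 0.14 (edgeR adjusted p of 0.018 and 0.026). Skp2, a ubiquitin ligase subunit that also coactivates Myc, fell (-0.31 and -0.19, edgeR adjusted p of 0.0044 and 0.049). Of 14 genes that set the stability of Myc protein, 4 fell in the cortex, 5 in the striatum and 0 rose (median -0.06 and -0.11). This was near the share of all genes called in either direction. Of all genes, 17.6% (cortex) and 15.8% (striatum) were called lower. Cip2a, which protects Myc from dephosphorylation, fell (-0.32 and -0.40, edgeR adjusted p of 0.016 and 0.017), and Gsk3b, the kinase that marks Myc for degradation, fell (-0.25 and -0.23, edgeR adjusted p of 0.0047 and 0.013). These act on Myc in opposite directions, and Myc protein was not analysed here.

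Known targets of Myc were counted next, in lists that share only Cdk4. Of 30 genes of metabolism and translation, 13 fell in the cortex, 9 in the striatum, 8 in both, and 0 rose in either (median -0.14 and -0.11). The striatal count was a share near the 30.2% of all genes called there, of which 15.8% of genes were lower and 14.4% higher. Being lower in both tissues held for 10.5% of all genes tested in both. Eif4a1, a helicase of translation initiation, fell (-0.56 and -0.60, edgeR adjusted p of 4.6e-05 and 0.0004). Nme2, a nucleoside diphosphate kinase, also fell (-0.78 and -0.73, edgeR adjusted p of 0.0063 and 0.016). It is uncertain because it was measured at only 0.372 to 1.35 CPM. Its neighbour Nme1 is also a close copy with which it may share reads. For ribosome biogenesis the 9 of 30 genes called in each tissue were a share near that of all genes, with 7 lower and 2 higher among cortices, then 6 lower and 3 higher among striata (median -0.05 and -0.06). The nucleolar genes Gnl3 (-0.32 and -0.43, edgeR adjusted p of 0.0011 and 0.0015) and Nop56 (-0.28 and -0.27, edgeR adjusted p of 0.00038 and 0.0057) fell, and Ncl, encoding nucleolin, rose (0.21 and 0.22, edgeR adjusted p of 0.0095 and 0.024). Of 15 cell cycle genes under Myc family control, 6 fell and 1 rose among cortices, whereas 7 fell and 0 rose among striata (median -0.19 and -0.26). Ccnd2, a cyclin that Myc activates, fell (-0.60 and -0.90, edgeR adjusted p of 8.2e-06 and 0.0004), and so did Cdkn1a (-0.87 and -0.66, edgeR adjusted p of 8.8e-05 and 0.00049), the inhibitor p21 that Myc is known to repress.

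Markers of other cells moved alongside. Of 12 genes of proliferating cells, 11 fell in each tissue (median -0.78 and -0.75), and their summed level was 101 to 119 CPM in control and 63.5 to 70.1 CPM in Trrap-FBΔ cortices, and 118 to 147 and 70.5 to 83.5 CPM in the striata. Microglial markers fell in 9 of 10 genes (cortex) and 6 of 10 (striatum), with sums of 408 to 459 and 299 to 373 CPM in the cortices and of 333 to 407 and 286 to 300 CPM in the striata. Markers of endothelial and mural cells fell in 8 and 3 of 10 (sums of 441 to 525 and 352 to 411 CPM in the cortices, and of 450 to 536 and 355 to 423 CPM in the striata), those of oligodendrocyte precursors in 7 and 4 of 8, and those of mature oligodendrocytes in 7 and 0 of 10. Of 12 markers of immature neurons, 5 fell and 1 rose (cortex) and 4 fell (striatum), with sums of 3680 to 4410 and 2090 to 2550 CPM in the cortices and of 3210 to 3660 and 2120 to 2360 CPM in the striata. These sums were mostly Stmn2, Gap43 and Tubb3, with means of 1570, 747 and 709 CPM beside a mean sum of 3940 CPM in control cortices. Sox11, Neurod1, Dlx1, Dlx2, Nnat and Draxin were called in neither tissue, and Igfbpl1 rose in the cortex (0.44, edgeR adjusted p = 0.043). The immature neuron sum thus follows a few abundant genes more than the whole list. Markers of cortical excitatory neurons fell in 1 of 12 genes (cortex) and 5 of 12 (striatum), and those of striatal projection neurons in 1 and 0 of 12. Astrocyte markers gave 2 lower and 2 higher genes of 10 among cortices, then 1 lower and 2 higher among striata, and those of interneurons 1 lower and 1 higher of 10 in each. Of 8 choroid plexus genes 0 and 1 were called, the latter higher, and of 6 blood genes 0 in either tissue. The sums of proliferating cells, immature neurons, microglia, and endothelial and mural cells did not overlap between genotypes in either tissue. The same was so for Myc, Mycn, Mxd4 and Mlx. Of all genes, 16.7% (cortex) and 16% (striatum) were lower in Trrap-FBΔ without overlap. The part of any of these cells in the members' values was not tested.

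**Figure D5:**
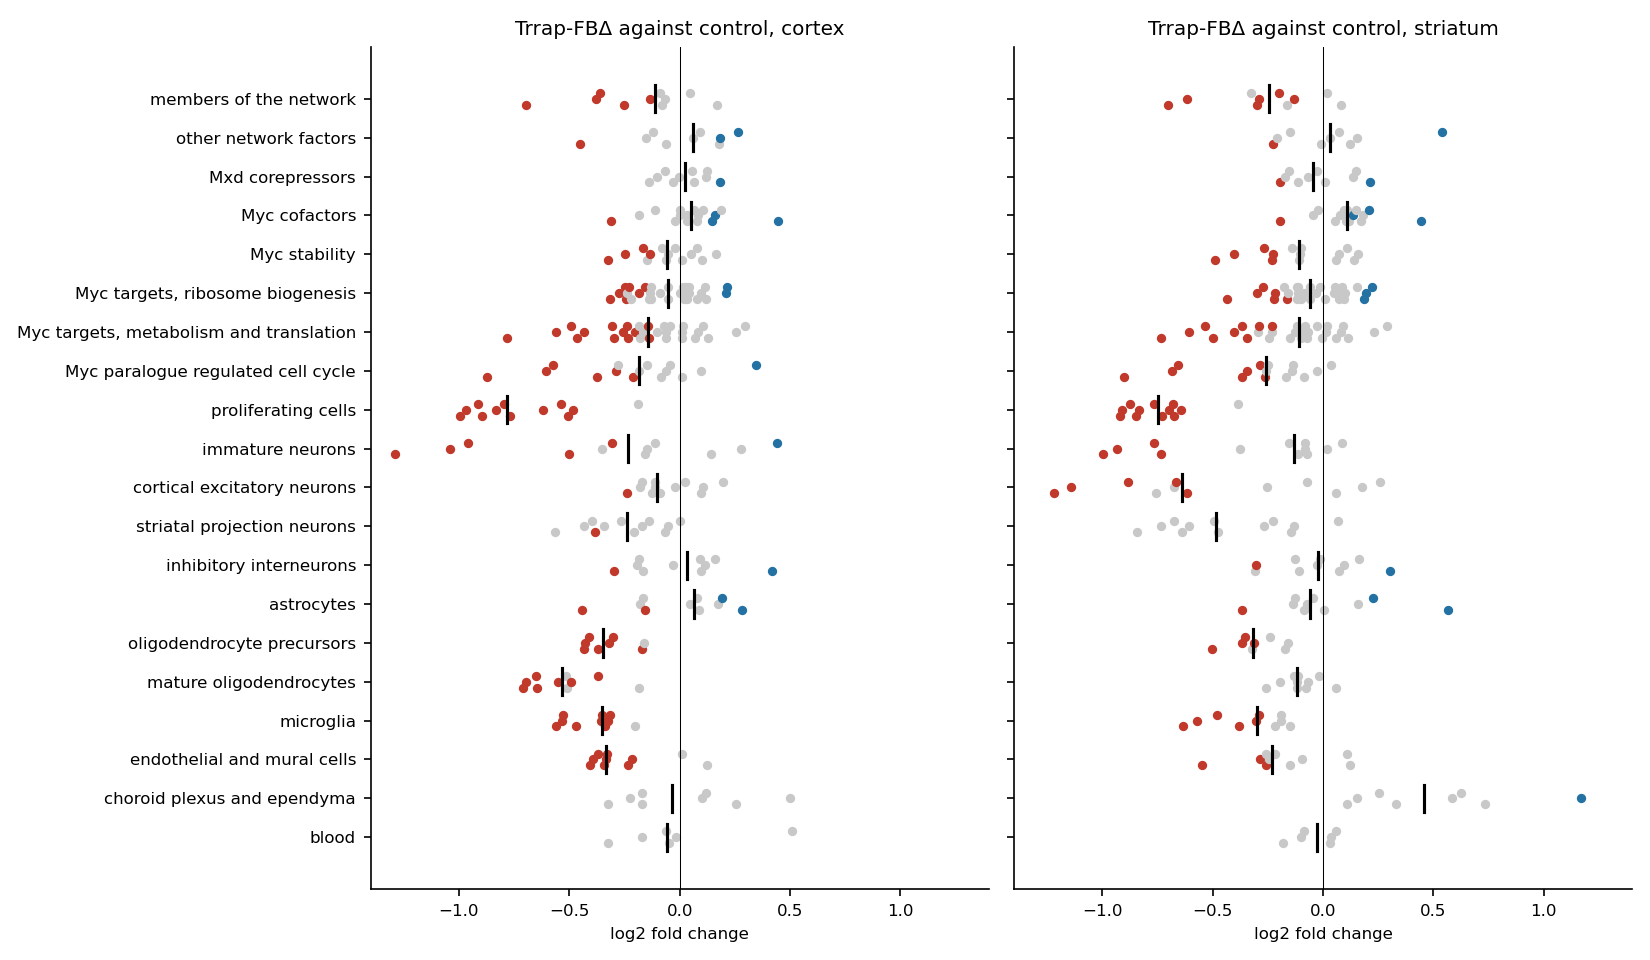
Log2 fold change (x axis) of each gene in the network and in the 19 lists (rows), in the cortex on the left and the striatum on the right. Red points fell and blue points rose past the edgeR threshold, grey points were not called, and black lines are medians. The median of proliferating cells lies farthest to the left in both tissues, at -0.78 and -0.75.

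The genes whose profile was most like that of a member were listed by Pearson's r of log2 CPM over the 16 libraries, among 14990 genes with a mean count of at least 50. Since the libraries fall into 4 groups and 7 pairs share an animal, r is a description with no test. For Myc they were Armc6, Stmn4 and Bdh1 (r = 0.979, 0.978 and 0.978), of which Stmn4 encodes a stathmin, a regulator of microtubules. For Mycn they were Rras2, Rhou and Ldha (0.990, 0.986 and 0.984), with Ldha, lactate dehydrogenase A, among the listed Myc targets. Mxd4 was most like Ube2c, Wtap and Nusap1 (0.956, 0.940 and 0.934), of which Ube2c and Nusap1 serve mitosis and Nusap1 is among the markers of proliferating cells. Mxi1 resembled Calm2, Arpp19 and Stk17b (0.981, 0.981 and 0.980), Mnt resembled Sarm1, Mapt and Abca3 (0.968, 0.965 and 0.964), and Mlx resembled Psmc3, Selenow and Mir22hg (0.984, 0.982 and 0.981). The median r over all genes compared was between 0.011 and 0.0603. Among the members themselves, Mycn and Mycl were closest at r = 0.948, and at 0.816 after the group means were removed, while Mycn and Mlx fell from 0.939 to 0.275.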

How the data were processed

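RNA was sequenced in 16 libraries, with a TruSeq Stranded mRNA kit and single-end reads. The authors demultiplexed the reads with bcl2fastq 1.8.4, aligned them to GRCm38 with STAR 2.5.4b and the Ensembl 92 annotation, counted uniquely mapped reads by strand with featureCounts 1.5.0, and deposited raw counts per gene, without normalization. Groups, mice and sexes came from the labels. A symbol was found for 53620 of 53801 identifiers.

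Counts were tested in R 4.3.3 with edgeR 4.0.16 (filterByExpr, TMM, quasi-likelihood test, Benjamini-Hochberg adjustment over all genes tested, threshold 0.05), within the 8 libraries of each tissue for genotype and over all 16 for tissue and interaction. CPM and RPKM were computed from these counts, and log2 CPM with a prior count of 2. Single values were compared by exact permutation tests, 2-sided, 20 for the members. The groups held 4 libraries each, at depths of 28743866 to 48761429 reads. Intervals at 95% are for the difference between groups and use the spread between libraries estimated in the fit. For tissue and interaction they took the cortex and striatum of the same mouse as independent. The labels number the mice, so libraries are separate animals within a group.

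Alternatives were upper-quartile and relative log expression scaling, no filter, DESeq2 1.42.0, limma-voom (limma 3.58.1), a null of 1.2-fold, sex as a covariate, all 16 libraries or those of 1 genotype in a fit, the mouse as a block, gene length by longest transcript, and each library left out. Leaving out control striata 58 and 64, or control cortices 58 and 63, was chosen after seeing the data, as was the longest transcript as length for the family sums. Over 18742 genes, deviations from group means correlated at r = 0.0845 to 0.244 (median 0.226) in the 7 pairs from 1 mouse. In the 25 other pairs of libraries of the same genotype across tissues, r was -0.173 to 0.123 (median -0.0851). Deviations cancel within a group, so a positive r within mice by itself lowers the r of these other pairs. The labels give the pairing as the mouse number. The fit was checked on simulated counts. No libraries were near-duplicates.

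The members and lists were chosen with earlier results of these data known. The genes named are the 10 members, Trrap and every called gene among the other listed factors. Also named are the 2 largest rises and 2 largest falls per list of partners, cofactors and targets among genes called in both tissues. The rest are the 3 most similar profiles per called member, and marker genes used to check tissues. Promoters came from the RefSeq table on GRCm38.p6. A protein table was not used here, so no amino acids are printed. The lane of each library was not given in the sources used here.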

Additional observations from a re-analysis of the deposited data

Results flagged for a closer look

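A single library stood far from the others of its group for 2 values, among 44 groups of 4 libraries tested, where chance flags about 1 group in 20. Myc was at 9.174 CPM in the Trrap-FBΔ striatum of mouse 61, and the other 3 libraries of that group were at 7.842 to 8.039 CPM. The gap was 0.851 of the group's range, above Dixon's 95% critical value for 4 samples, and the library still lay below every control striatum. Mlx was at 36.28 CPM in the Trrap-FBΔ cortex of mouse 57, against 32.67 to 33.26 CPM in the other 3, with a gap of 0.838 of the range. It too lay below every control cortex. The cause of neither was tested.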

How the results depend on the processing

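Of the log2 fold changes of the members and Trrap, 666 stayed on the same side of the threshold and in the same direction when 1 library was left out, 25 lost and 2 gained a call, and 11 changed sign. Under the other settings, levels by longest transcript included, 542 stayed, 39 lost and 5 gained a call, 5 changed sign, and 32 levels per length moved by more than 1 SD. Against a null of 1.2-fold the members called were 1 in the cortex, 2 in the striatum, and 2 (controls) and 4 (Trrap-FBΔ) between tissues. With sex as a covariate 3 were called in the striatum, where Mxd4, Mxi1 and Mnt had edgeR adjusted p of 0.063, 0.053 and 0.11. Leaving out 1 library gave 4 to 5 members in the cortex, 3 to 5 in the striatum (3 without control 64 or Trrap-FBΔ 59 or 60), 8 to 9 and 7 to 8 between tissues, and 0 in the interaction. With the mouse as a replicate block, 7 (edgeR) and 9 (limma-voom) members were called between control tissues, 8 and 8 in Trrap-FBΔ, and 0 and 0 in the interaction, for which all genes called rose from 85 to 219 and 303. The block changed the calls of no members but Mycl and Mxd1. Signs changed only for values that were not called. With 1 library left out these were Mxd1 in the striatum (-0.0331 to 0.056), Mxd3 between Trrap-FBΔ tissues (-0.00255 to 0.151), and the interactions of Mxd4 (-0.0166 to 0.0237), Mnt (-0.000803 to 0.123) and Mlx (-0.065 to 0.0111). The Mxd4 interaction log2 fold change was -0.00332 with sex as a covariate, -0.00924 without control striata 58 and 64, and -0.012 without control cortices 58 and 63. The Trrap striatum log2 fold change was 0.00404 without control striata 58 and 64, and the Trrap tissue control log2 fold change was 0.00987 with the block in edgeR. The causes were not tested. Mxd3, at 46 to 98 reads per library, is limited by depth.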
